A study of Mus musculus with 6 samples.

Results

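Ngfr, which encodes the p75 neurotrophin receptor, was compared between tamoxifen-treated and vehicle-treated skin fibroblasts together with 2 neurotrophin genes (Bdnf and Ntf3), 2 Trk receptor genes (Ntrk2 and Ntrk3) and the sorting receptor gene Sort1. These 6 genes of the 22162 in the deposited table were matched by gene symbol. They were chosen because Ngfr was far lower in the tamoxifen-treated libraries, so the values of Ngfr are given as a description without a test. Ngfr was at 1078 to 3545 normalized counts in the vehicle libraries and at 9.20 to 52.9 in the tamoxifen libraries. Bdnf and Sort1 were detected in all 6 libraries, with overlapping groups and no call. Ntrk2 and Ntrk3 were at 11.8 normalized counts or less, and Ntf3 was listed at 0 throughout.

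The cells are MSFs, a line of skin fibroblasts from the dorsal skin of FASST mice, here of strain FVB/N. FASST mice carry a tamoxifen-dependent Cre (Col-Cre-ERT2) under a pro-alpha 2(I) collagen promoter, and a ROSA allele in which a lox-stop-lox cassette precedes p27Kip1 and GFP. Both groups carry both alleles and were grown at 3% oxygen. The 3 TAM libraries, labelled senescent, come from cells given 10 µM tamoxifen for 48 h, and the 3 EtOH libraries, labelled non-senescent, from cells given the ethanol vehicle. The 48 h is the length of treatment, and the methods of the paper do not state when RNA was collected after it. The line is described as isolated from a single mouse and nothing states that the libraries came from separate animals, so p-values here measure only the spread between these libraries, which may be technical. Every TAM library also received the drug, so that an effect of tamoxifen itself and one of p27Kip1 cannot be told apart.

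Neurotrophins are secreted growth factors, best known for the survival and growth of sensory and sympathetic neurons that innervate tissues such as skin. The mature factors bind Trk receptor tyrosine kinases, with BDNF acting mainly on TrkB and neurotrophin 3 on TrkC. Neurotrophins also bind p75, a death-domain receptor without a kinase, which pairs with sortilin to bind uncleaved precursors. Fibroblasts and other non-neuronal cells of the skin are known sources of neurotrophins.

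The deposited values are normalized counts, read counts per gene that the authors scaled between libraries, and 16.2 of them correspond to 1 c.p.m., by the mean sum of the 6 libraries. Sums per library were between 14952367 and 17314953. Differences are given as log2(value + 1) in TAM minus EtOH with the standard error (SE) of a limma fit. It covered 11877 genes, those that reached 1 c.p.m. in 3 or more libraries. The adjusted p-values are Benjamini-Hochberg values over all of these genes. Without a block for the replicate number, 0.168% of the tested genes were called higher in TAM at an adjusted p under 0.05 and 0.0758% were called lower. With the block, which compares each TAM library with the EtOH library of the same number, the shares were 1.00% and 0.615%. The row for Cdkn1b, the mouse gene for p27Kip1, held 1427, 3074 and 1853 normalized counts in EtOH replicates 1, 2 and 3 and 1699, 1520 and 1630 in TAM. The groups overlapped and the difference was -0.32 (limma adjusted p = 0.677). Whether transgene reads were counted on that row is not stated, so Cdkn1b does not check the labels.

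Ngfr (ENSMUSG00000000120) lies on the minus strand of mm9 at chr11:95430132-95449049, with 1 annotated transcript of 3446 bases in 6 exons and no overlapping exon of another gene. Its promoter is printed here because Ngfr is the member that differed most. The 250 bases before the transcription start (RefSeq, GRCm38.p6, chr11:95587699-95587948, minus strand) are given 5′ to 3′, with each GC box, the letters GGGCGG on either strand, in capitals.
Ngfr promoter: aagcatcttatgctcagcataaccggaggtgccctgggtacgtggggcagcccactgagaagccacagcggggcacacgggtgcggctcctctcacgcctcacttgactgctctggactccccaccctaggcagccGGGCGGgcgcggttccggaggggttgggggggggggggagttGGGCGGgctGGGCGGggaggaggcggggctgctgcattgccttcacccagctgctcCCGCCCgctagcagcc
The GC box is the recognition motif of the Sp family of transcription factors. Of these bases 70.4% were G or C, against a median of 52.4% over the 32851 promoter windows of the same length. The window held 4 GC boxes, and 32.7% of all windows held at least 1 and 4.09% held at least as many. TATAAA and CCAAT, searched on both strands, had 0 matches here and occurred in 12.4% and 33.8% of windows. These are matches of letters and not measured binding sites.

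EtOH replicates 1, 2 and 3 held 2901, 1078 and 3545 normalized counts of Ngfr, a mean of 2508 ± 1280 (SD, n = 3). TAM replicates 1, 2 and 3 held 27.2, 9.20 and 52.9, a mean of 29.8 ± 22.0 (SD, n = 3). The lowest EtOH library was above the highest TAM library, and in both groups replicate 3 was highest and replicate 2 lowest. The ratio of the group means was 84.3. On the log2 scale the same-numbered pairs differed by -6.69, -6.72 and -6.04, with a mean difference of -6.48 (SE 0.68, and 0.22 with the replicate block). In the low values of TAM replicate 2 the steps were of 0.84 normalized counts, so that 9.20 there stands for 11 reads. Read numbers behind the other libraries are not known. These are bulk libraries, in which fewer cells that express Ngfr and less Ngfr RNA per cell cannot be told apart.

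**Figure D1:**
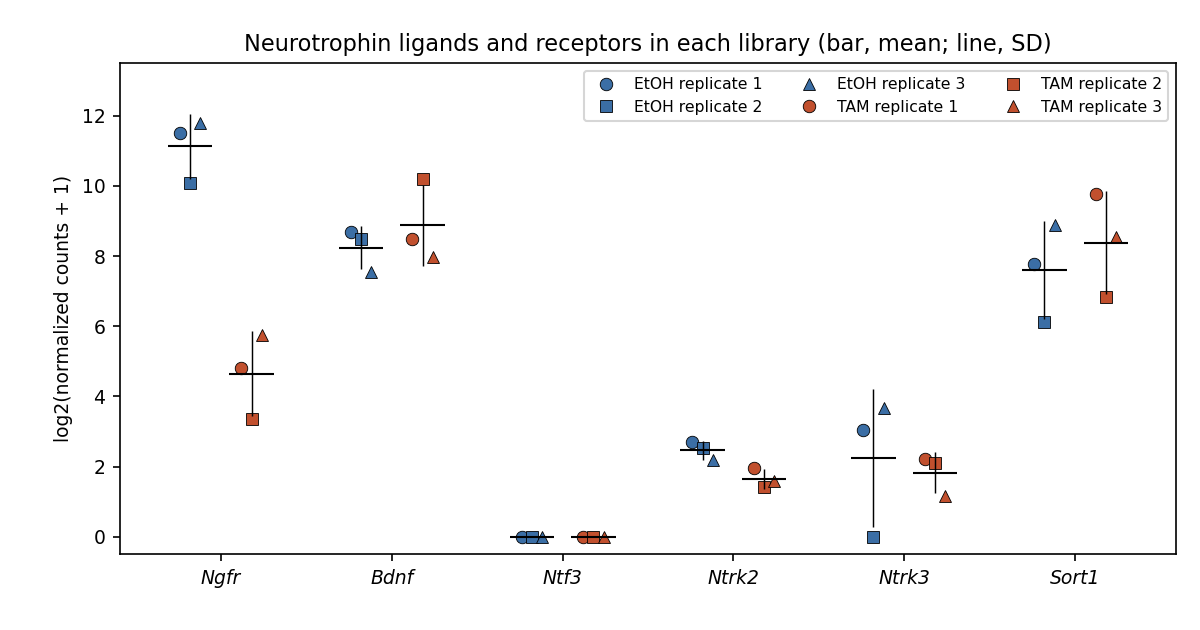
Normalized counts of the neurotrophin genes in each library (y axis, log2 of the value + 1), with 1 point per library, a horizontal bar for the mean and a vertical line for the SD of the log2 values in each group. Ngfr is the gene whose groups lie far apart, at 1078 to 3545 in EtOH and 9.20 to 52.9 in TAM, while Bdnf and Sort1 overlap.

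Ngfr had the second-lowest difference of the 11877 genes tested. Lower still was Dscam (-8.23), an adhesion receptor of neurons, at a mean of 989 normalized counts in EtOH and 2.42 in TAM. Next above Ngfr was Col15a1 (-6.08), a basement membrane collagen, with means of 2560 and 43.2. The following gene was Rxfp1 (-5.26), a relaxin receptor, with means of 107 and 0.813. The median difference of all tested genes was -0.03.

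**Figure D2:**
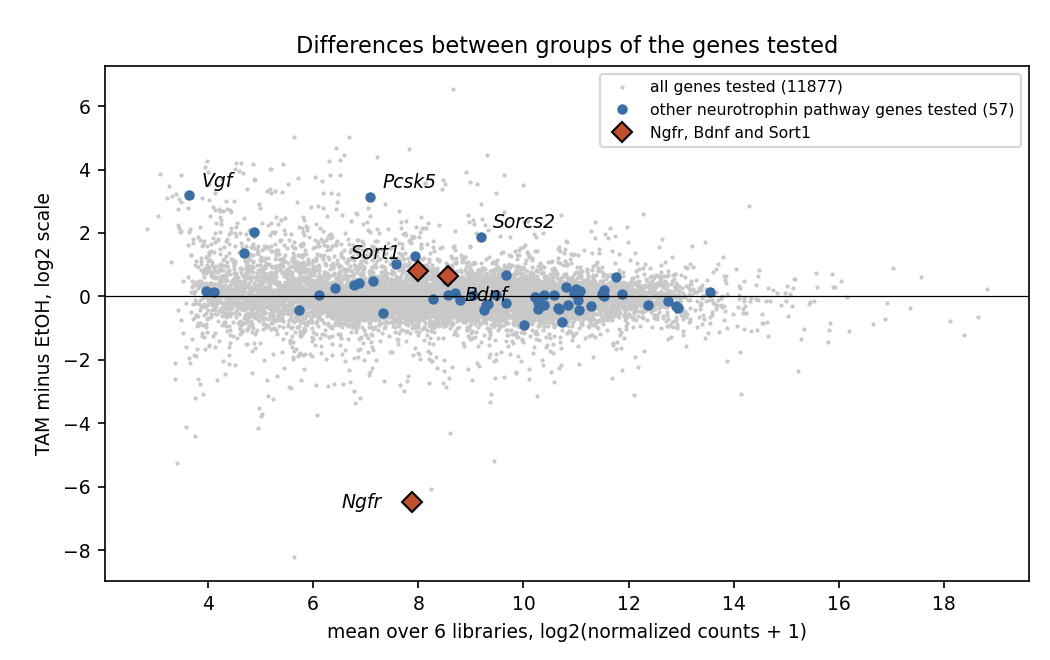
Mean level of each of the 11877 tested genes over the 6 libraries (x axis, log2 of normalized counts + 1) against its TAM minus EtOH difference (y axis, log2). Ngfr lies at -6.48, near the bottom of the cloud, and Bdnf (0.64) and Sort1 (0.79) lie within its body.

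Ntrk2 and Ntrk3 were at a few normalized counts in these fibroblasts. Ntrk2, the gene for TrkB, held 5.55, 4.77 and 3.52 normalized counts in EtOH replicates 1, 2 and 3 and 2.88, 1.66 and 1.99 in TAM. The means were 4.61 ± 1.02 and 2.18 ± 0.631 (SD, n = 3 each). Each TAM library was below every EtOH library, and the pairs differed by -0.76, -1.12 and -0.60, with a mean of -0.82. All of these values were under 1 c.p.m., so Ntrk2 was not tested. In TAM replicate 2 its value stands for 2 reads.

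The Ntrk2 row (ENSMUSG00000055254) is listed at chr13:58907957-59038391 of mm9 on the plus strand. These are the bounds of the transcript Ntrk2-203, which has 13 exons and 7002 bases, and cover 130 kb of the 327 kb gene. Ntrk2-203 encodes a truncated TrkB without the kinase domain. The kinase-length transcript Ntrk2-202 has 18 exons, of which 12 lie inside the listed locus, with 1851 of its 8541 bases (21.7%). For Ntrk2-204 and Ntrk2-205 the shares were 19.6% and 20.3%. If reads were counted only inside the listed locus, most of the bases of the kinase-length transcripts were not counted, and the row cannot tell the forms apart. The coding sequences of both forms are printed from base 1372 to base 1431 to show where they part, with the bases after the last shared one, 1394, in capitals.
Ntrk2-203: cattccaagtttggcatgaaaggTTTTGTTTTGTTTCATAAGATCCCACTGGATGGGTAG
Ntrk2-202: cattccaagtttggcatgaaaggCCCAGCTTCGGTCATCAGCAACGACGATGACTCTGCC
The truncated form ends at base 1431 of its coding sequence, and the kinase-length form continues to base 2466.

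**Figure D3:**
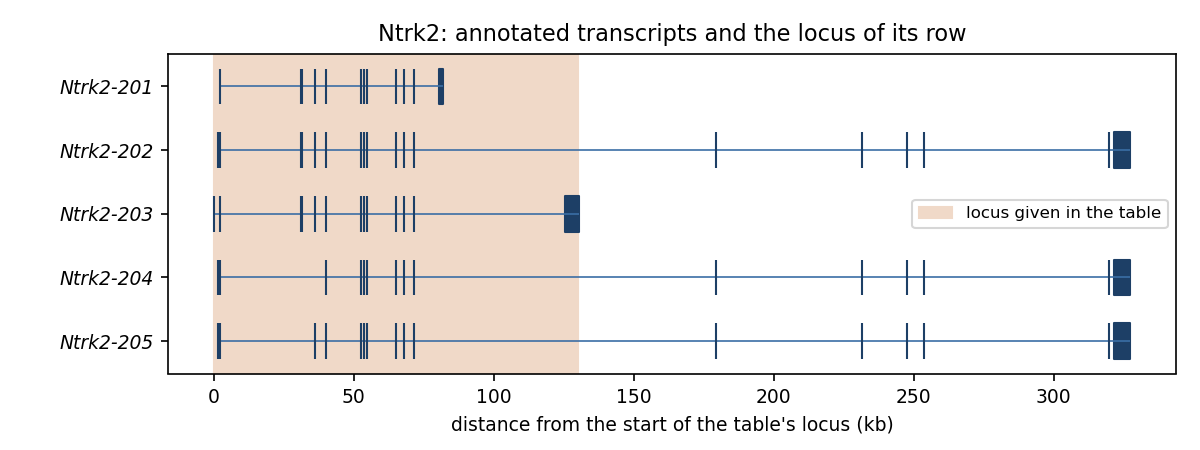
Exons of the Ntrk2 transcripts (boxes) by distance in kb from the start of the locus listed in the table (x axis), with that locus shaded. Ntrk2-203 fills the shaded 130 kb, and the kinase-length transcripts have 19.6% to 21.7% of their bases inside it.

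Ntrk3 (ENSMUSG00000059146, minus strand, chr7:85337248-85723294), the gene for TrkC, held 7.19, 0 and 11.8 normalized counts in EtOH and 3.64, 3.34 and 1.22 in TAM. The means were 6.32 ± 5.93 and 2.73 ± 1.32 (SD, n = 3 each), and the groups overlapped. The pairs differed by -0.82, 2.12 and -2.52 and so had no common direction, and Ntrk3 was too low to be tested. In TAM replicate 2 its value stands for 4 reads.

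Among the ligands, Bdnf (ENSMUSG00000048482, plus strand, chr2:109514857-109567163) has 10 annotated transcripts that 1 row sums, and 7 promoters in the RefSeq table. EtOH replicates 1, 2 and 3 held 408, 360 and 185 normalized counts, with a mean of 317 ± 117 (SD, n = 3). TAM replicates 1, 2 and 3 held 356, 1162 and 250, with a mean of 589 ± 499 (SD, n = 3). TAM replicate 2 was above all other libraries, and the other TAM libraries lay within the EtOH range. The pairs differed by -0.20, 1.69 and 0.43, and the mean difference of 0.64 (SE 0.59) did not pass the test (limma adjusted p = 0.685, or 0.463 in the blocked fit). Without TAM replicate 2 the difference was -0.01.

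Ntf3 (ENSMUSG00000049107, minus strand, chr6:126051431-126116762), the gene for neurotrophin 3, has 2 annotated transcripts and was listed at 0 in all 6 libraries. In TAM replicate 2 a value of 0 allows up to 2.52 normalized counts, the worth of 3 reads, which covers counting error only. Ntf5, the gene for neurotrophin 4, the other TrkB ligand (chr7:52669065-52672548), ranged from 9.23 to 17.2 in EtOH and from 10.9 to 20.3 in TAM, with a difference of 0.17 (SE 0.49, limma adjusted p = 0.917).

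Sort1 (ENSMUSG00000068747, plus strand, chr3:108087009-108164429) encodes sortilin, the Vps10 family receptor that pairs with p75 and also sorts BDNF inside cells. EtOH replicates 1, 2 and 3 held 218, 68.6 and 472 normalized counts, a mean of 253 ± 204 (SD, n = 3). TAM replicates 1, 2 and 3 held 865, 114 and 371, a mean of 450 ± 382 (SD, n = 3). Replicate 2 was the lowest in both groups, and the groups overlapped. The pairs differed by 1.98, 0.72 and -0.35, and the mean difference of 0.79 (SE 0.89) did not pass the test (limma adjusted p = 0.749, and 0.454 with the block). It was 0.05 without EtOH replicate 2 and 0.10 without TAM replicate 1. Of the exon bases of Sort1, 4.35% are overlapped by Gm12523 on the other strand, and whether counting used strand is not stated.

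**Figure D4:**
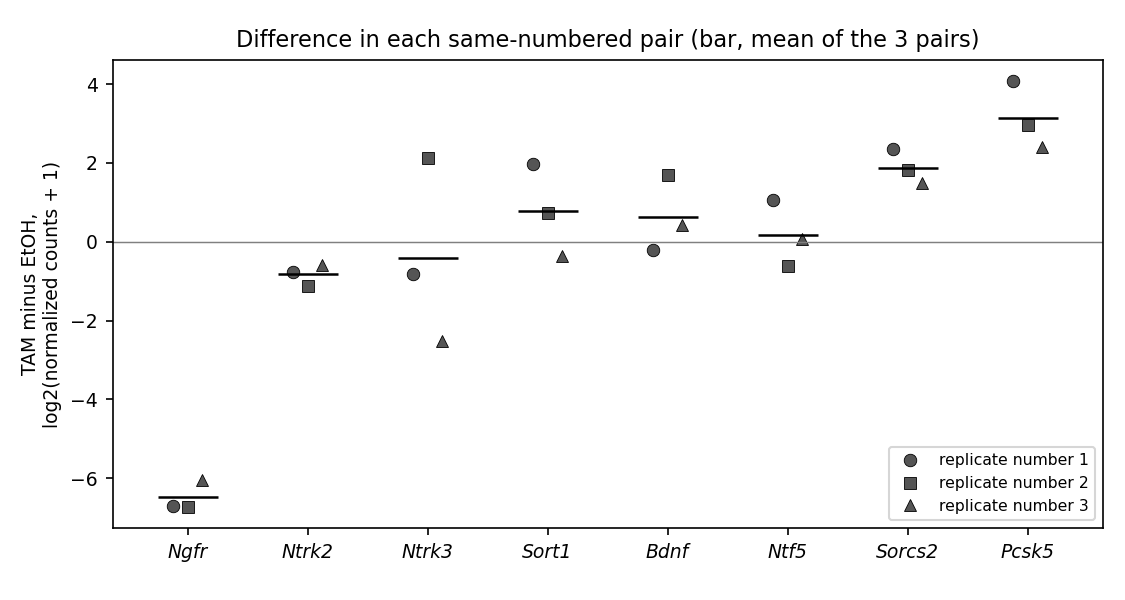
TAM minus EtOH difference (log2 of normalized counts + 1) within each same-numbered pair of libraries for the neurotrophin genes, Sorcs2 and Pcsk5, with 1 point per pair and a bar for the mean of the 3 pairs. All 3 points of Ngfr lie between -6.72 and -6.04, and those of Bdnf, Ntrk3 and Sort1 fall on both sides of 0.

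Levels of different genes were compared per kilobase of transcript. In EtOH, Ngfr stood at 728 ± 371 normalized counts per kb (SD, n = 3), above the level per kb of Bdnf (74.4 ± 27.5) and Sort1 (37.2 ± 30.0), whose values overlapped. Ntf5 (7.20 ± 2.18), Ntrk3 (1.91 ± 1.80) and Ntrk2 (0.659 ± 0.146) were lower per kb. In TAM the order was Bdnf (138 ± 117) and Sort1 (66.2 ± 56.1), then Ngfr (8.64 ± 6.37) and Ntf5 (8.11 ± 2.41), with Ntrk3 (0.828 ± 0.400) and Ntrk2 (0.311 ± 0.0901) again at the bottom. Ngfr was the highest of these genes per kb in EtOH, and in TAM its spread overlapped that of Ntf5.

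Ratios of 2 genes in the same library do not depend on the scaling between libraries. Per kb, Ngfr stood at 8.81, 3.71 and 23.7 times the level of Bdnf in EtOH replicates 1, 2 and 3 and at 0.0946, 0.00980 and 0.262 times in TAM. The ratio of Ngfr to Sort1, the receptors that pair for precursor binding, was 26.2, 31.0 and 14.8 in EtOH and 0.0620, 0.159 and 0.281 in TAM. In every EtOH library Ngfr was above Sort1 and Bdnf per kb, and in every TAM library it was below both. Sort1 to Bdnf ranged from 0.120 to 1.60 in EtOH and from 0.0615 to 1.52 in TAM, with overlapping groups. The ratios that hold Ngfr carry the difference that chose the members.

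Of 64 other genes of the pathway in the table, grouped in 7 lists by role, 57 were tested. Without the block limma called 0 in either direction, beside 0.168% higher and 0.0758% lower of all tested genes. An unadjusted p under 0.05 was reached by 5 that were higher in TAM and 3 that were lower. The shares over all tested genes at that threshold were 6.67% and 6.70%. The blocked fit called 2 higher and 0 lower, beside 1.00% and 0.615% of all tested genes. In that fit 8 higher and 3 lower reached an unadjusted p under 0.05, beside 8.64% and 8.32% of all tested genes. The unadjusted counts given for single lists are from the fit without the block. The median difference of the 57 genes was 0.04, beside -0.03 for all tested genes, and 32 of them were positive. The groups did not overlap for 5 genes higher in TAM and 6 lower, where the shares over all tested genes were 9.19% and 11.4%.

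Both called genes encode partners or processing enzymes of the pathway. Sorcs2 (ENSMUSG00000029093, minus strand, chr5:36359829-36740773), a Vps10 family receptor related to sortilin that also associates with p75, held 443, 241 and 258 normalized counts in EtOH and 2269, 848 and 724 in TAM. Every TAM library was above every EtOH library, and the means were 314 ± 112 and 1280 ± 859 (SD, n = 3 each), a ratio of 4.08. The difference was 1.88 (SE 0.46, limma adjusted p = 0.182), and Sorcs2 rose with the block (SE 0.22, adjusted p = 0.0352), in 3 of 3 pairs. Pcsk5 (ENSMUSG00000024713, minus strand, chr19:17507883-17912122), a proprotein convertase that can cleave neurotrophin precursors, held 104, 43.8 and 19.3 in EtOH and 1753, 346 and 107 in TAM. Its groups did not overlap, with means of 55.6 ± 43.4 and 735 ± 890 (SD, n = 3 each), a ratio of 13.2. The difference was 3.14 (SE 1.03, limma adjusted p = 0.268), and Pcsk5 rose with the block (SE 0.36, adjusted p = 0.0345), in 3 of 3 pairs.

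No other pathway gene was called with or without the block. Among the 3 tested receptors and co-receptors, all 3 differences were positive. They ran from 0.36 for Lingo1, a partner of p75 in the Nogo receptor complex, to 2.02 for Rtn4r, the Nogo receptor itself (limma adjusted p = 0.299). The 10 proteases had a median difference of 0.07, with the lowest value at Pcsk6 (-0.44, limma adjusted p = 0.858). The 11 tested adaptors and effectors of p75 had a median of -0.25 and 3 positive differences, from -0.42 for Traf6 to 1.27 for Ripk2, a kinase that binds the p75 death domain (limma adjusted p = 0.522 and 0.384). Of these 11 adaptors and effectors, limma called 0 in either fit. Over all tested genes the called shares were 0.168% higher and 0.0758% lower without the block, and 1.00% and 0.615% with it. With so few genes, 0 calls do not show that these genes were unchanged. An unadjusted p under 0.05 was reached by 0 without the block and by 1 with it, Ripk2 (limma unadjusted p = 0.00428, adjusted p = 0.109), which was higher in TAM in 3 of 3 pairs.

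The 15 tested Trk adaptors and effectors lay close to 0, with a median of 0.04 and a range from -0.27 for the phospholipase Plcg1 to 0.60 for the phosphatase Ptpn11 (limma adjusted p = 0.719 and 0.378). The 7 tested sortilin ligands and sorting adaptors had a median of -0.31, from -0.89 to 0.17. The lowest was Gga2, an adaptor that carries sortilin from the Golgi, at 1201, 1733 and 1304 normalized counts in EtOH and 892, 580 and 820 in TAM, without overlap (limma adjusted p = 0.196). The highest was Lrpap1, a chaperone of lipoprotein receptors (limma adjusted p = 0.737). The 9 genes that Trk signalling is known to induce had a median of 0.48, and limma called 0 of them, with 1 higher and 1 lower by an unadjusted p under 0.05. Vgf, a neurotrophin-induced secreted peptide precursor, stood at 4.47, 1.86 and 3.42 in EtOH and 18.9, 115 and 22.0 in TAM. The difference of Vgf was 3.19 (SE 0.79, limma adjusted p = 0.182, and 0.150 with the block). Vgf is the 1 gene of this list counted as higher. It reached 1 c.p.m. only in TAM libraries, so it was tested only through the group where it was higher. Its p-values and that count are therefore no support for a rise. Spry2, a feedback inhibitor of receptor tyrosine kinases, was at the other end, with -0.80 (SE 0.24, limma adjusted p = 0.233).

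**Figure D5:**
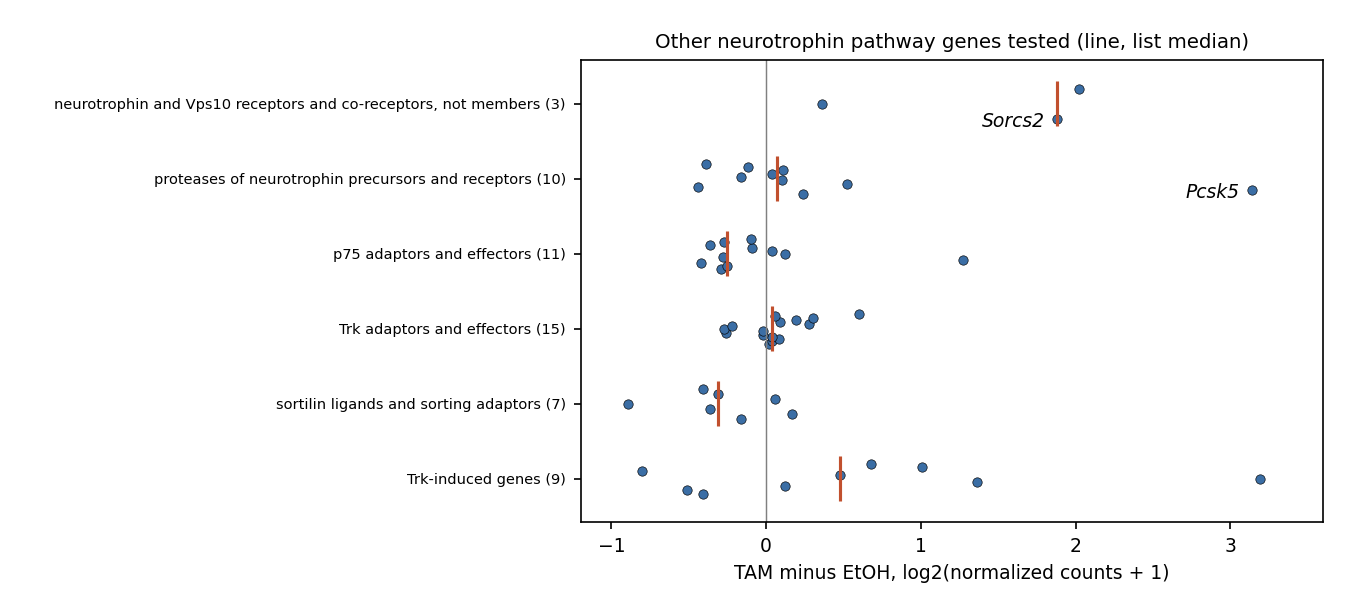
TAM minus EtOH difference (x axis, log2 of normalized counts + 1) of each tested gene of 6 of the 7 pathway lists, without the ligands, with 1 row per list and the list median as a vertical line. The medians lie between -0.31 and 0.48 apart from the 3 receptors and co-receptors (1.88), and Sorcs2 and Pcsk5 are the genes called with the replicate block.

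The 5 genes whose log2 values followed those of Ngfr most closely over the 6 libraries were Snx1 (Pearson r = 0.995), Gchfr (0.992), Fam132a, BC021785 and Raly (0.991 each). This is a description over 6 points that share the group difference. Their own differences were smaller than that of Ngfr, between -2.71 and -0.53. Gchfr, a regulator of tetrahydrobiopterin synthesis, had 307, 229 and 262 normalized counts in EtOH and 47.3, 25.1 and 52.2 in TAM. Snx1, a sorting nexin of endosomes, had 1979, 1863 and 2033 in EtOH and 1332, 1242 and 1493 in TAM. In both genes replicate 2 was the lowest of its group, as in Ngfr. Both were chosen by their correlation with Ngfr in these libraries, so the shared order is not a separate result.

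Fibroblast markers were abundant in every library, with summed levels of 2162963 to 2196081 normalized counts in EtOH and 1324174 to 1709797 in TAM for all 10 genes listed. Without the block limma called 0 of them, beside 0.168% higher and 0.0758% lower of all tested genes. By an unadjusted p under 0.05, 1 was higher and 2 were lower, beside 6.67% and 6.70%. Their median difference was -0.74. The groups did not overlap for 1 gene higher in TAM and 5 lower, beside 9.19% and 11.4% of all tested genes. The shares by p-value also apply to the other marker lists. Schwann cells, a skin cell type that expresses Ngfr, were looked for with 10 markers. Cdh19, Foxd3 and Gfra3 were at 0 in all libraries, and Sox10, the defining factor of that lineage, was at 0 in all 3 EtOH libraries, where Ngfr was at 1078 to 3545. The sum of the Schwann cell list was 179 to 303 in EtOH and 71.1 to 173 in TAM, most of it from Mbp, and of the 2 genes tested limma called 0, both being lower at an unadjusted p under 0.05. The endothelial list summed to 85.8 to 241 in EtOH and 15.7 to 35.1 in TAM, with its 1 tested gene, Kdr, called lower with the block. The dermal papilla list summed to 6224 to 9278 in EtOH and 11699 to 17095 in TAM. Most of it came from Vcan, at 5600 to 7258 in EtOH and 10434 to 13593 in TAM. In this list Sox2 and Hhip were at 0. Of its 3 tested genes limma called 0, and 2 were higher at an unadjusted p under 0.05. The part of these moving lists in the Ngfr values was not tested. The summed levels of the melanocyte, neuron, keratinocyte, mural cell, myoblast and macrophage lists overlapped between groups. Of their 15 tested genes limma called 0, with 3 higher and 1 lower by an unadjusted p under 0.05.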

How the data were processed

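Poly(A) RNA of 3 EtOH and 3 TAM samples of MSFs was sequenced, and libraries were grouped by the treatment in their labels. The authors mapped reads to mm9 with TopHat, counted them per gene with HTSeq and used edgeR with TMM normalization. The signal deposited by the authors is 1 table of counts per gene, normalized between libraries and mostly not whole, and its scaling is not stated. The planned test assumed counts, so limma was used instead. In TAM replicate 2 the values under 20 lie within 0.0714 steps of whole multiples of 0.84. Smallest values above 0 were 0.36 to 0.89 in the 6 libraries, and depth in reads is unknown for 5 of them.

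The members and lists were chosen with earlier results of these data known. limma 3.58.1 in R 4.3.3 was fitted, with its trend option, to log2(value + 1) of the 11877 genes that reached 1 c.p.m. in 3 of 6 libraries. The fit was also run on simulated data with the same noise for every gene and large planted changes. That run does not cover the spread of the real libraries. Genes with an adjusted p under 0.05 were called. Of the 22162 genes, 4829 were at 0 in all libraries. Replicate numbers come from the labels. Deviations from the group means correlated across genes at 0.24, 0.29 and 0.42 in same-numbered libraries. In the 6 other combinations the correlations ran from -0.31 to 0.04. Deviations sum to 0 within each group, so these correlations are not independent of each other. On this check in the same data the numbers were taken to pair libraries, and both fits are given. The text names the members, Cdkn1b, Ntf5, pathway genes called in either fit, otherwise the largest positive and negative difference of each list, and the 5 genes most correlated with Ngfr. Some genes of the lists are not reported here. Genes beside Ngfr in the order of differences, other marker genes and examples were named after their values were seen. Positions are from the mm9 annotation (GENCODE M1), and per-kb levels use the transcript whose bounds match the table. Alternatives were other pseudocounts, no filter, other scalings, the replicate block and leaving out each library. Alternatives for the pathway lists were added after seeing the data. Python 3.11.15 with pandas 2.3.3 handled the tables, and matplotlib 3.10.9 drew the figures.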

Additional observations from a re-analysis of the deposited data

How the results depend on the processing

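Alternatives were pseudocounts of 0.1 and 10, no filter, 2 other scalings, the replicate block and leaving out each library. The difference of Ngfr stayed between -7.04 and -5.84 under all 12. Over all genes, 20 were called higher and 9 lower. Without the filter the counts were 12 and 5, and with the replicate block 119 and 73. Leaving out any of the 6 libraries (EtOH replicates 1, 2 and 3, TAM replicates 1, 2 and 3) gave 0 to 6 higher and 0 to 9 lower, with 521 to 890 and 440 to 893 at an unadjusted p under 0.05 (limma). In the pathway lists the block called 2 genes higher, and it changed no other call among the members and these lists. The difference of Bdnf ranged from -0.01 without TAM replicate 2 (limma adjusted p = 0.994) to 1.10, and that of Sort1 from 0.05 without EtOH replicate 2 to 1.55. Ntrk2 was at -0.26 with a pseudocount of 10. Its range on leaving out a library was -0.98 to -0.70. Ntrk3 was at 0.32 with a pseudocount of 0.1 and ranged from -1.53 to 0.31 on leaving out a library, the latter without EtOH replicate 3. The cause of these shifts was not tested. Ntf3 has no value, being 0 throughout. The median of all genes was -0.03 as deposited, 0.08 scaled to the mean column sum and -0.01 with median-ratio factors. Depth limits Ntrk2 and Ntrk3, which stand for a few reads in TAM replicate 2.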
